A study of Homo sapiens with 6 samples.

Results

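The iron handling genes, 8 genes whose products move, store or sense iron, were followed through the RNA pol II occupancy of HepG2 cells. They were the plasma carrier TF, the receptors TFRC and TFR2, the ferritin subunits FTL and FTH1, the hormone gene HAMP, and the cytosolic iron sensors ACO1 and IREB2. A region counted for a gene where the deposited annotation named that gene as its nearest, which gave 273 of the 271336 regions in 4 lists, and 8 of the 16428 genes named in at least 1 list. The RPB1 lists held 49 of 46045 such regions in SHP-1 WT cells and 48 of 41605 in SHP-1 KO cells. The phospho-Ser2 RPB1 lists held 104 of 102674 in WT cells and 72 of 81012 in KO cells.

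RPB1, the largest subunit of RNA pol II, and its form phosphorylated on serine 2 of the C-terminal domain were mapped by ChIP-seq in HepG2, a human hepatoma cell line. SHP-1 WT cells were labelled as CRISPR controls, for which the study's methods describe a nontargeting guide as well as untransfected cells, and SHP-1 KO cells had been cut in PTPN6, the gene that encodes the tyrosine phosphatase SHP-1. Both were otherwise untreated and were represented by 1 library per antibody and cell type, and the methods describe the KO cells as single-cell clones, so clone and genotype cannot be told apart and no difference has a replicate check. Each value below is a fold enrichment, that is, the height of a region at its summit over the input DNA of the same cells. It is not a sum over the gene. The value of a gene is the highest among its regions, so it can be higher in genes with more regions. Depth is unknown because read counts were not part of these lists, and the 2 input libraries were not analysed here.

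The cells carried RNA pol II at the genes that mark their lineage. Of 8 hepatocyte markers, 8 had an RPB1 region in WT cells and 7 in KO cells, with median folds of 29.9 and 24.1, and APOA1 was the one without a region in the KO list (4.02 in WT). Of 8 markers of leukocytes, endothelium, stroma and glia, 3 and 2 had one, at no more than 7.44 and 7.87, and PTPRC, CD3E, CDH5, COL1A1 and LUM had none. The classes overlapped, since the highest of these, PECAM1, was above FGB (7.25 and 5.22) in both lists and above APOA1 in WT cells. For phospho-Ser2 RPB1, 8 of 8 hepatocyte markers had a region in both lists, with medians of 15.1 and 14.0. Of the other lineages, PECAM1 (9.75 in WT and 7.67 in KO cells) and GFAP (13.5 and 8.02) had one. Their WT values were above those of HNF4A (8.19), FGB (8.38) and APOA1 (3.91). Their KO values were above those of HNF4A (4.68) and FGB (4.27) but not APOA1 (9.46). The strongest RPB1 region of PTPN6 had a fold of 24.0 in WT cells and 17.2 in SHP-1 KO cells, which does not measure the SHP-1 protein and therefore does not check the genotype labels.

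Transferrin, made by hepatocytes, carries ferric iron in plasma and enters cells through the transferrin receptors, while ferritin cages built from light and heavy chains hold the iron that is not used. Hepcidin, the peptide encoded by HAMP, is released by the liver and lowers iron export by degrading ferroportin. The iron regulatory proteins encoded by ACO1 and IREB2 bind hairpins in mRNAs such as those of TFRC and the ferritins, so much of the known control of these genes by iron acts on the mRNA, which RNA pol II occupancy does not measure. Phosphorylation of serine 2 accompanies elongation and is usually highest toward the ends of genes, whereas total RPB1 is usually highest at starts.

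The letters just before the start sites are shown because the strongest RPB1 regions of TF, TFRC, FTL, ACO1 and IREB2 had their summits close to those sites. RefSeq promoters (GRCh38.p14) were at hand for 6 of the 8 genes, with TFR2 and FTH1 not matched. The 60 bases before the start of the MANE Select transcript are given from 5′ to 3′ on the coding strand, and capitals mark the letters ATAAA, which resemble the core promoter motif found about this far before some starts.

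TF, chr3:133746333-133746392, forward: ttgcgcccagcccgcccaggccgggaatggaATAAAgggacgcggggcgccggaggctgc

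TFRC, chr3:196082091-196082150, reverse: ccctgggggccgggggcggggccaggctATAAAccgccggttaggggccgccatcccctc

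FTL, chr19:48965249-48965308, forward: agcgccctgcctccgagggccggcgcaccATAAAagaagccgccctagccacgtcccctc

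HAMP, chr19:35282468-35282527, forward: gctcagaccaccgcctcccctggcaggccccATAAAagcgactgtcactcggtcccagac

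ACO1, chr9:32384583-32384642, forward: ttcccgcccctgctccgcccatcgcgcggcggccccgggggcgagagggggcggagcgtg

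IREB2, chr15:78438156-78438215, forward: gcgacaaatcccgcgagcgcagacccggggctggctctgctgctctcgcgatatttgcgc

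ATAAA stood in the window from 40 to 16 bases before the start in the carrier, the receptor, the ferritin light chain and the hormone gene, with its first base 29 bases before the start in TF, 32 in TFRC, 31 in FTL and 29 in HAMP. Neither sensor gene had it. Of all 35116 promoters in the table, 4.65% had these letters in the same window, and 2.07% had the reverse complement TTTAT, which none of the 6 had. Within the 300 bases around its start (250 before, 50 after) HAMP held 12 CG dinucleotides and the other genes 23 to 37, beside a median of 14 over all promoters. A run of letters is a description of the window and no evidence that a factor binds there.

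All 8 genes had a region in all 4 lists, as had 56.2% of all named genes. In WT cells, TF had the highest RPB1 fold of the group (93.8), followed by FTL (84.2), FTH1 (58.0), TFRC (50.4), ACO1 (38.5), IREB2 (28.7), TFR2 (21.4) and HAMP (10.1). TF ranked 71 and FTL 128 among the 14164 genes of the list, whereas HAMP ranked 10539. In SHP-1 KO cells the order became FTL (70.8), TFRC (58.1), FTH1 (51.5), TF (46.7), IREB2 (29.3), ACO1 (22.1), HAMP (10.1) and TFR2 (7.97). The deposited annotation classed the strongest RPB1 region of each of the 8 genes as promoter in both lists. With 1 library each, the error of these values is unknown and neighbours in either order cannot be separated.

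**Figure D1:**
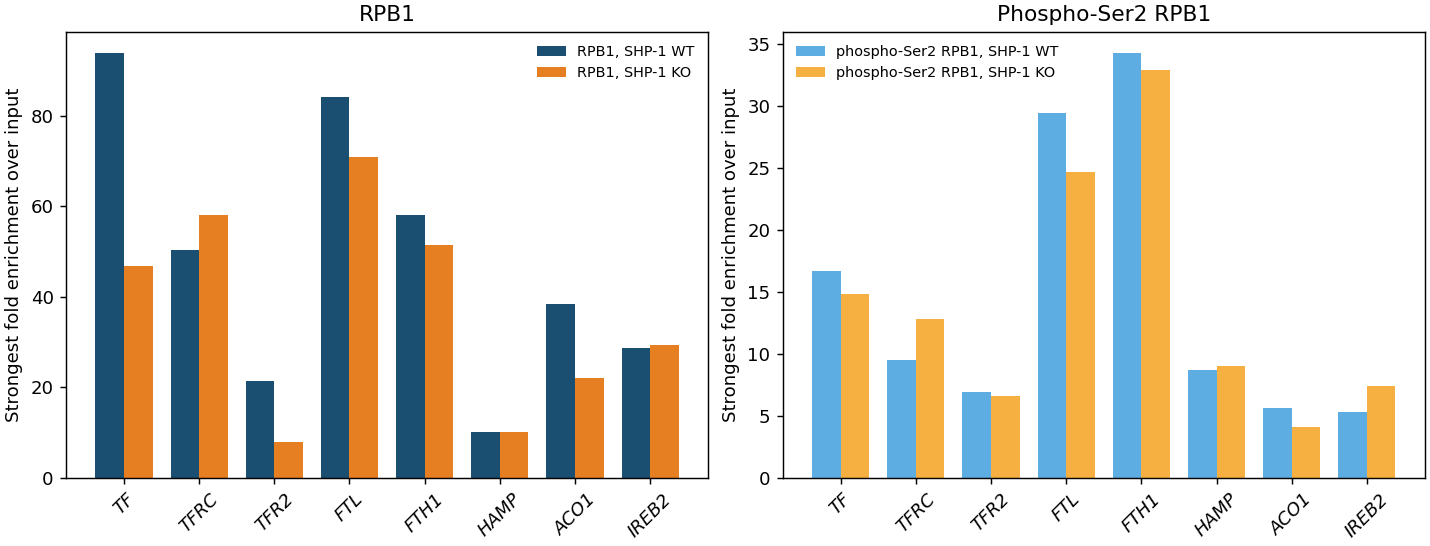
Strongest fold enrichment over input assigned to each gene, for RPB1 (left) and phospho-Ser2 RPB1 (right), with 1 bar per library and no error bars because there is 1 library per antibody and cell type. The RPB1 bars of TF (93.8 and 46.7), TFR2 (21.4 and 7.97) and ACO1 (38.5 and 22.1) are lower in SHP-1 KO cells, and FTL and FTH1 have the tallest phospho-Ser2 bars.

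The strongest RPB1 fold was at least 1.5-fold lower in SHP-1 KO cells at 3 of the 8 genes, TF, TFR2 and ACO1, beside 36.1% of the 12877 genes with a region in both lists. It was at least 1.5-fold higher at 0 of 8, beside 2.68% of all genes. These shares are near those of all genes, whose median KO to WT ratio was 0.742, so each ratio has to be read against that general shift. The median over the 8 genes was 0.864. Relative to the shift, that is, after division by 0.742, 1 gene was past 1.5-fold lower (TFR2, 0.50) and 1 past 1.5-fold higher (TFRC, 1.55), beside 9.64% and 11.3% of all genes. For phospho-Ser2 RPB1, 0 of 8 were past 1.5-fold lower and 0 of 8 past 1.5-fold higher, beside 11.7% and 5.71% of 10870 genes, and the median ratio was 0.962 over the 8 genes and 0.936 over all.

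**Figure D2:**
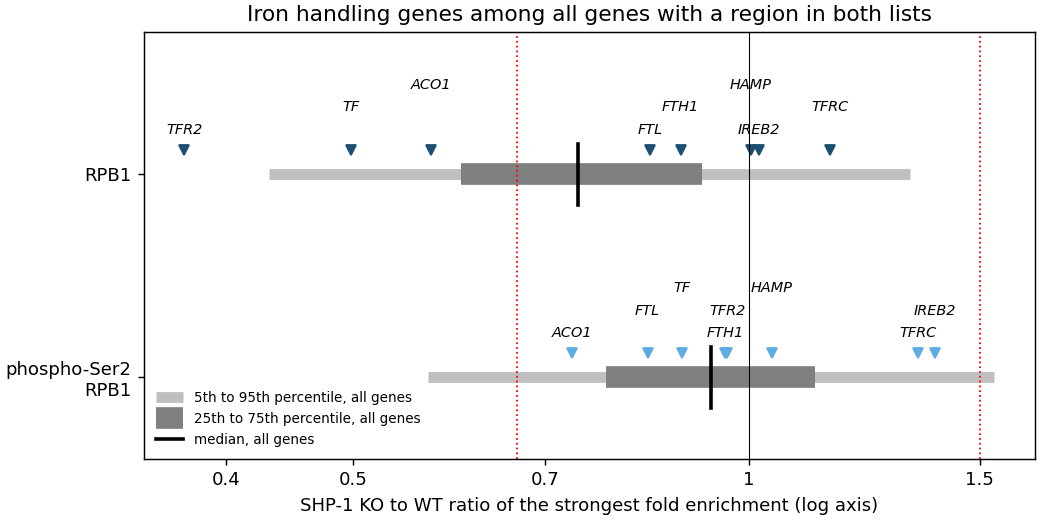
KO to WT ratio of the strongest fold enrichment on a log axis, with the iron handling genes as triangles above bars for all genes (light, 5th to 95th percentile; dark, 25th to 75th; black line, median) and dotted red lines at 1.5-fold lower and higher. TFR2 (0.372) lies below the 5th percentile of the RPB1 ratios (0.432), TF (0.498) and ACO1 (0.573) lie between the 5th and the 25th (0.604), and all 8 phospho-Ser2 ratios lie between the 5th and the 95th percentile.

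Of the 49 RPB1 regions assigned to these genes in WT cells, 26 were overlapped by a SHP-1 KO region by at least 1 bp, beside 61.9% of all WT regions. Of the 104 phospho-Ser2 regions, 37 were, beside 52.2% of all. In the other direction, 45 of the 48 RPB1 regions and 44 of the 72 phospho-Ser2 regions in SHP-1 KO cells touched a WT region, beside 74.9% and 69.9% of all SHP-1 KO regions.

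TF, the transferrin gene (chr3:133746393-133796641, forward strand, GENCODE release 44), had a much shorter RPB1 region at its start in the SHP-1 KO list. Its main RPB1 region ran for 12224 bp in WT, from 0.748 kb before the start to 11.5 kb into the gene (chr3:133745645-133757868), with a fold of 93.8 at a summit 63 bp into the gene. In SHP-1 KO cells the region at the start was 1867 bp long, with a fold of 46.7 at a summit 52 bp in. The stretch that was a single region in WT was covered by 10 separate regions in SHP-1 KO cells, over 72.8% of its length, and no RPB1 region of TF after the first exceeded a fold of 12.1 there. TF therefore had more assigned RPB1 regions in SHP-1 KO (26) than in WT cells (19), but they summed to 18318 bp against 29193 bp. The share of the gene lying in an RPB1 region, whichever gene that region was assigned to, was 65.3% in WT cells and 44.2% in the KO.

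Phospho-Ser2 RPB1 at TF differed less. The WT list had 2 assigned regions of which the longer spanned 22446 bp, with a fold of 16.6 at 15827 bp into the gene, and the KO list had 8 with the longest at 16358 bp and a fold of 14.8 at 15918 bp. The share of the gene inside a phospho-Ser2 region was 75.6% and 71.0%. Near the start, the phospho-Ser2 fold was 12.5 in WT cells and 7.05 in SHP-1 KO cells. The deposited annotation gave the regions in the later part of the TF model, from 31.7 kb onward for RPB1 and from 25.3 kb for phospho-Ser2 RPB1 in WT cells, to SRPRB, a neighbour named here after its values were seen, and among these the strongest had an RPB1 fold of 22.8 in WT cells and 15.3 in KO, and a phospho-Ser2 fold of 12.7 and 13.2. No list had a region in the TF model beyond 38.4 kb.

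TFR2, the second transferrin receptor, which takes part in hepatic iron sensing, lies at chr7:100620420-100641552 on the reverse strand. It had the lowest RPB1 ratio of the group, 0.372, and 2.34% of all genes had a ratio as low or lower. The WT region (chr7:100640015-100643064) covered the start and peaked at 21.4, 1130 bp upstream of it. In SHP-1 KO cells that stretch held separate regions with folds of 7.97, peaking 1124 bp upstream, and 7.29, near the start. The upstream one reaches the end of ACTL6B, which had no assigned region in any list.

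Along the body of TFR2 the lists thinned in the same direction. Assigned RPB1 regions numbered 11 in WT cells and 6 in KO cells and covered 36.2% and 10.7% of the gene. Assigned phospho-Ser2 regions numbered 10 and 4, and phospho-Ser2 regions of any assignment covered 19.9% and 7.42%. The WT share includes a region at the gene end (6.61) that the annotation gave to MOSPD3, a neighbour named after its values were seen. In the 7044 bp after the start, 12.9% lay in a phospho-Ser2 region in WT cells and 0% in KO cells. The strongest phospho-Ser2 fold, close to the gene end in both lists, was 6.87 in WT cells and 6.62 in SHP-1 KO cells.

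**Figure D3:**
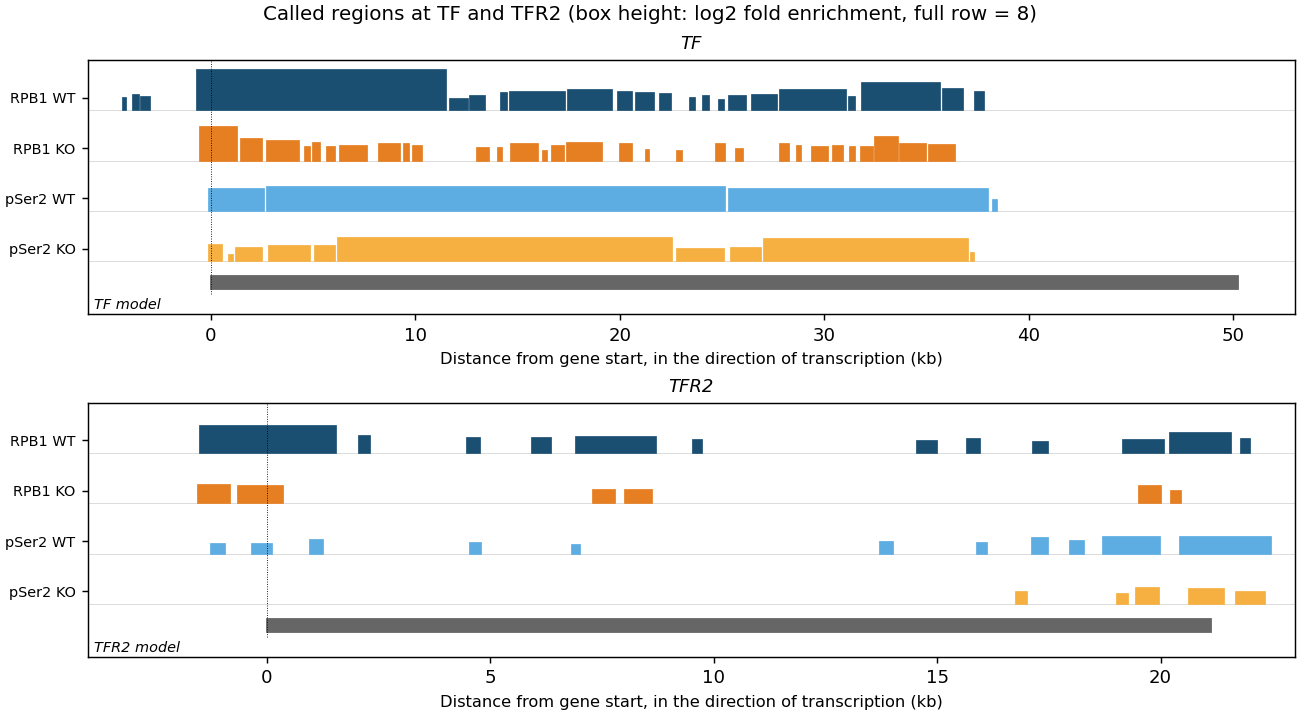
Called regions at TF and TFR2 by distance from the gene start in kb, 1 row per library, where the width of a box is the region and its height is the log2 of the fold enrichment at the summit (a full row is 8). The grey bar is the gene model, and regions assigned to neighbours are included. The RPB1 block of TF that runs to 11.5 kb in WT is broken up in SHP-1 KO cells, and TFR2 has fewer boxes in both SHP-1 KO rows.

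TFRC, the main receptor for transferrin-bound iron (chr3:196049284-196082090, reverse strand), had an RPB1 fold of 50.4 in WT cells and 58.1 in SHP-1 KO cells, with summits 44 bp and 36 bp into the gene. The ratio of 1.15 was above that of most genes (90.4% were at or below it), while genes within 1 Mb of TFRC had a median ratio of 0.857. Its phospho-Ser2 fold at the start was 4.18 in WT cells and 9.77 in SHP-1 KO cells. The strongest phospho-Ser2 region lay at the end of the gene, with its summit 1771 bp beyond the end at 9.50 in WT cells and 637 bp beyond it at 12.8 in SHP-1 KO cells. Phospho-Ser2 regions covered 22.1% and 24.4% of the gene. The ratio of the strongest phospho-Ser2 regions was 1.34, whereas that of the promoter regions alone was 2.34. TFRC, HAMP and IREB2 were the members whose strongest assigned regions gave ratios of 1.00 or more for both antibodies. The share of all genes with this pattern was not counted. For HAMP these regions peaked just past the end of USF2, and for IREB2 the phospho-Ser2 summits lay at different places in the lists.

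FTL, the ferritin light chain gene (chr19:48965309-48966879, forward strand), is short, and a single RPB1 region of 12486 bp in WT cells and 12353 bp in KO cells spanned it together with parts of BAX and GYS1. The folds were 84.2 and 70.8, at summits 36 bp before and 2 bp after the start of FTL. The strongest phospho-Ser2 folds were 29.4 and 24.6, 876 bp and 821 bp beyond the end of the gene. The ratios of 0.841 for RPB1 and 0.838 for phospho-Ser2 lay inside the central range of all genes.

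FTH1, the ferritin heavy chain gene, whose product oxidizes iron for storage, lies at chr11:61964285-61967634 on the reverse strand. It had one of the highest phospho-Ser2 folds in the cells, 34.2 in WT (rank 13 of 12740 genes) and 32.8 in SHP-1 KO cells (rank 5 of 11433), both beyond the end of the gene, at 678 bp and 659 bp. Its main RPB1 region was 7405 bp and 7348 bp long and also touched BEST1, with folds of 58.0 and 51.5. The summits were not at the same place, 83 bp before the start in WT cells and 513 bp beyond the gene end in KO cells, so the ratio of 0.888 does not compare a single position. GENCODE names 25 pseudogene copies of FTH1 and 16 of FTL, and how reads shared with such copies were placed is not given in the sources used here.

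Upstream of FTH1, RPB1 occupied stretches that hold no MANE Select gene model and that the deposited annotation gave to FTH1. Between 2 and 8.5 kb upstream, the strongest RPB1 fold was 24.9 in WT cells and 16.2 in SHP-1 KO cells, and phospho-Ser2 RPB1 was found in 4 regions (up to 5.13) and 1 region (4.03). Between 30 and 38 kb upstream, RPB1 covered 3850 bp in 3 WT regions, with a fold of up to 16.7, and 712 bp in 2 SHP-1 KO regions, with a fold of up to 5.20. There, phospho-Ser2 RPB1 was in 5 regions in WT (up to 5.37) and in 0 in SHP-1 KO cells. The differences at these stretches were not tested. The gene itself is no yardstick for them, because its RPB1 summits lay at different places in the WT and KO lists. The median RPB1 ratio over all genes was 0.742. Of all WT regions, 61.9% for RPB1 and 52.2% for phospho-Ser2 RPB1 were overlapped by a KO region. The 101 bases around the strongest WT summit of each stretch are shown on the forward strand of hg38 to place them, with the summit base in capitals.

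FTH1 upstream, chr11:61973420-61973520: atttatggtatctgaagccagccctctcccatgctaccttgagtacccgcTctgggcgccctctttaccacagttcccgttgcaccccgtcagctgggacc

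FTH1 far upstream, chr11:62001696-62001796: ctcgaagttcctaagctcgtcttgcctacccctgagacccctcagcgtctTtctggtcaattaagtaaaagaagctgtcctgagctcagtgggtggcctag

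HAMP, the hepcidin gene (chr19:35282528-35285143, forward strand), had the lowest RPB1 fold of the group in WT cells. The strongest assigned RPB1 fold was 10.1 in both lists, but its summit lay 2094 bp before the start in WT cells and 2250 bp before it in KO cells, just past the end of USF2, so position does not tell whether this value belongs to HAMP or to USF2. At the HAMP start, WT cells had a region with a fold of 4.89 and a −log10 q of 5.73 (chr19:35282433-35282717). SHP-1 KO cells had none there, and their nearest region peaked 459 bp before the start with a fold of 4.22 and a −log10 q of 3.19. The phospho-Ser2 folds were 8.66 and 9.03, again past the end of USF2 (604 bp and 711 bp), and 0% of the HAMP gene lay in a phospho-Ser2 region in either list.

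**Figure D4:**
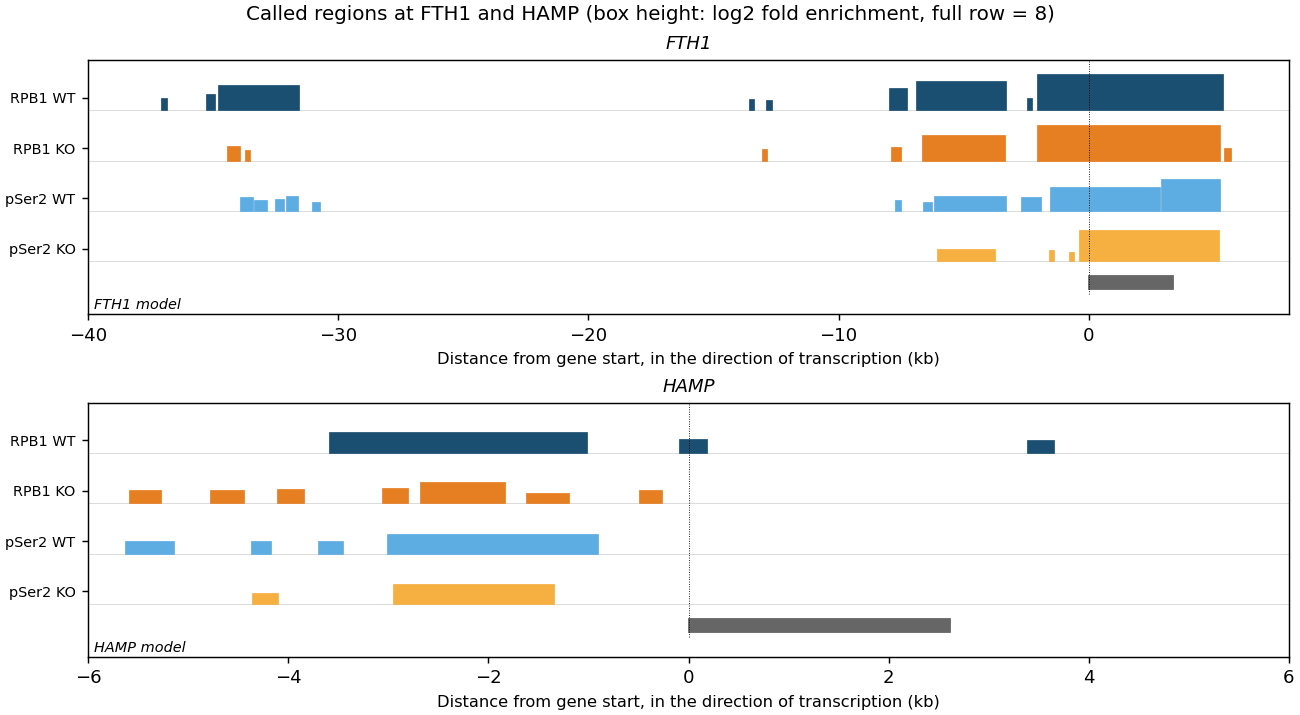
Called regions at FTH1 and HAMP by distance from the gene start in kb, drawn as for TF, with grey bars for the gene models. At FTH1 the WT rows show RPB1 and phospho-Ser2 boxes between 30 and 38 kb upstream where the SHP-1 KO rows have 2 small RPB1 boxes and none. At HAMP most boxes lie upstream of the start, and the WT box at the start (4.89) has no counterpart.

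ACO1, which encodes iron regulatory protein 1, a protein that also works as the cytosolic aconitase, lies at chr9:32384643-32454769 on the forward strand. It had a single RPB1 region in each list, at the promoter, with a fold of 38.5 in WT cells and 22.1 in SHP-1 KO cells, 149 bp and 96 bp into the gene. Of all genes, 20.0% had a ratio as low as its 0.573 or lower, and the median over genes within 1 Mb was 0.776. Phospho-Ser2 RPB1 was weak. In WT cells, 6 regions with folds of 3.30 to 4.48 were assigned to ACO1 in or at the end of the gene, and SHP-1 KO cells had 0. Of all WT phospho-Ser2 regions, 52.2% were overlapped by a KO region, so missing calls of this kind were not shown to be particular to ACO1. Within 5 kb beyond the end, regions assigned to DDX58, a neighbour named after its values were seen, reached 4.37 in WT cells and 3.42 in the KO. The other phospho-Ser2 regions assigned to ACO1, 8 in WT cells and 7 in KO cells, lay 237 to 427 kb upstream, and the phospho-Ser2 ratio of 0.734 comes from these distant regions and not from the gene.

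IREB2, which encodes iron regulatory protein 2 (chr15:78438216-78501453, forward strand), had an RPB1 fold of 28.7 in WT cells and 29.3 in SHP-1 KO cells, with summits 69 bp and 84 bp into the gene. Its ratio of 1.02 was at or above that of 83.6% of genes, and genes within 1 Mb had a median of 0.692. Phospho-Ser2 RPB1 lay over the gene in many short regions, 40 in WT with folds of 2.17 to 5.32 and 25 in SHP-1 KO cells with folds of 2.43 to 7.37. Regions of any assignment covered 23.8% and 15.9% of the gene. At the start, the phospho-Ser2 fold was 2.96 in WT cells and 7.37 in SHP-1 KO cells. The strongest WT region lay far into the gene, at 54252 bp, and the strongest SHP-1 KO region 256 bp before the start, so the phospho-Ser2 ratio of 1.39 compares different places. At the end of the gene, regions that the annotation gave to HYKK, a neighbour named after its values were seen, reached 7.56 in WT cells and 7.38 in the KO, and the ratio by position within 3 kb of the gene was 0.977. Both sensors thus had fewer phospho-Ser2 regions in the SHP-1 KO list, which was also the shorter list over the genome.

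**Figure D5:**
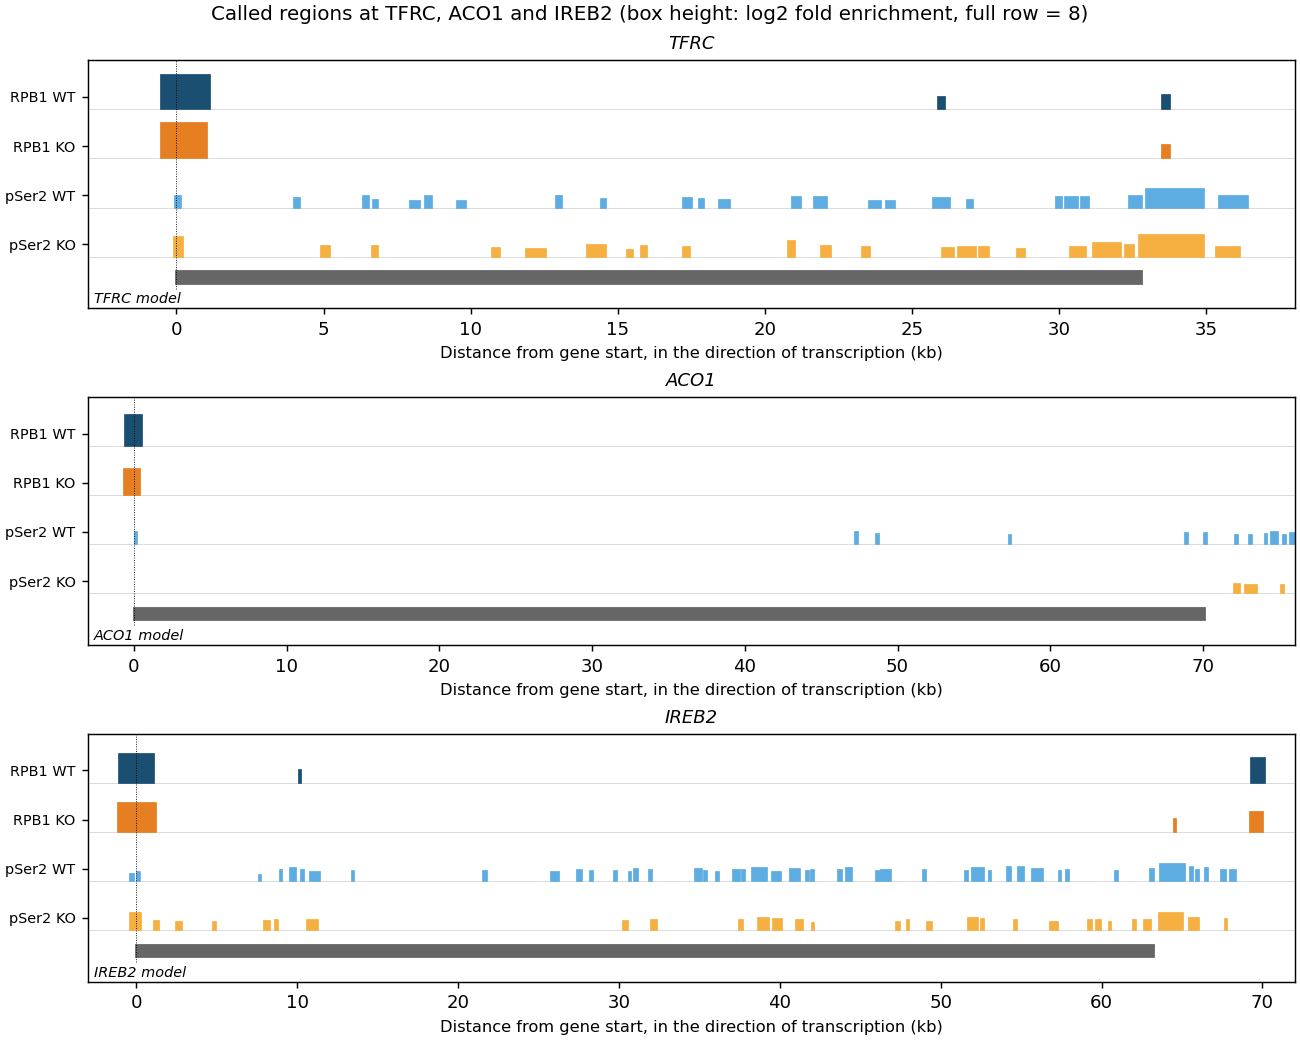
Called regions at TFRC, ACO1 and IREB2 by distance from the gene start in kb, drawn as for TF, with grey bars for the gene models. RPB1 boxes stand at the starts of all 3 genes in both cell types. Phospho-Ser2 boxes are scattered along TFRC and IREB2, and the ACO1 model has none in SHP-1 KO cells.

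The other genes of iron handling were read from a list of 46 genes in 6 roles. An RPB1 region was assigned to 34 of them in WT cells and 32 in KO cells, and of the 32 with both, 15 were at least 1.5-fold lower in SHP-1 KO cells and 1 was higher, beside 36.1% and 2.68% of all genes, with a median ratio of 0.692 beside 0.742 for all genes. For phospho-Ser2 RPB1, 7 of 29 were lower and 0 higher, beside 11.7% and 5.71% of all genes, with a median of 0.865 beside 0.936. Of the 12 genes with no assigned RPB1 region in WT cells, 4 (STEAP2, ACVR1, PCBP1 and NFS1) had a region within 1 kb of their start that the annotation gave to another gene.

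By role, the genes with a lower RPB1 fold were 0 of 5 uptake genes with both values, 2 of 2 export and plasma oxidase genes, 5 of 12 genes of hepcidin control, 2 of 3 genes of cytosolic sensing and ferritin turnover, 3 of 6 heme genes and 3 of 4 genes of mitochondrial iron. These groups are small, differences between them were not tested, and the share over all genes was 36.1%. The strongest region of a gene need not lie at its start, so a lower value is not always lower there. For instance, NCOA4, named after its values were seen, had strongest folds of 44.9 in WT and 27.2 in KO cells. Within 1 kb of its start it had 25.8 and 27.2. The highest RPB1 folds in WT cells were at SLC39A14, an importer of iron not bound to transferrin (91.1 in WT, 66.8 in KO), ALAS1, the first enzyme of heme synthesis in liver (81.3 and 36.9), SMAD5 (57.0 and 46.8) and SMAD4 (54.1 and 45.5), which carry BMP signals to HAMP, and STEAP3, a reductase that works with the transferrin receptor (52.0 and 35.9). Among the lowest ratios were those of SLC40A1, which encodes the iron exporter ferroportin (46.2 and 17.4, ratio 0.376), BMPR2, a BMP receptor (50.7 and 20.8, 0.411), HFE, the hemochromatosis protein (8.68 and 3.84, 0.442), and ALAS1 (0.454). CYBRD1, a ferric reductase, was the one past 1.5-fold higher, at low folds of 3.17 and 6.09, and had no region within 1 kb of its start in any list. An RPB1 region in WT cells only was found at TMPRSS6, the protease that cleaves hemojuvelin (8.03), and at HP, which encodes the hemoglobin carrier haptoglobin (4.70). Of the 34 listed genes with an RPB1 region in WT cells, 32 also had one in KO cells, beside 12877 of 14164 over all genes. Absence from the KO list was therefore not particular to iron genes.

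For each of the 8 genes, the gene nearest to it in the 4 log2 strongest folds was sought among 9203 others. These were DECR2 for TF, PPP1R15A for TFRC, FTSJ1 for TFR2, HLA-DMA for FTL, GAS5-AS1 for FTH1, MIR6728 for HAMP, LOC100288846 for ACO1 and IPO5 for IREB2, at Euclidean distances of 0.09 (IREB2) to 0.39 (FTH1) on the log2 scale over 4 libraries. The TFR2 pattern of 21.4 and 7.97 for RPB1 with 6.87 and 6.62 for phospho-Ser2, for instance, was matched by FTSJ1 with 22.0, 8.03, 7.88 and 6.82.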

How the data were processed

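RPB1 and phospho-Ser2 RPB1 ChIP-seq lists from 4 HepG2 libraries were used, grouped by the sample labels. The authors trimmed reads with Trimmomatic, aligned them to GRCh38/hg38 with BWA and called narrow peaks with MACS2, using the matching input DNA of each cell type. Versions are not given in the sources used here. The deposited lists give a fold enrichment over input, a ratio, and the −log10 of p-values and q-values, with a smallest −log10 q of 1.31. A deposited table of the authors' own RPB1 comparison (csaw window counts and p-values) was not used.

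Regions were taken by the authors' gene symbol. For each gene and list the highest fold was used, and called means a KO to WT ratio of at least 1.5 in either direction. Overlap meant at least 1 bp. The start zone was 1 kb on each side of the start. All 271336 regions lay within their hg38 chromosomes, gene models were the MANE Select transcripts of GENCODE release 44, and promoter sequences came from RefSeq. No test was run, since there was 1 library per group. Ratio and overlap functions were tested on simulated data. The genes named were all 8 members, and of the 46 other iron genes the 5 with the highest WT RPB1 fold, those with RPB1 in 1 cell type only, and up to 5 per direction by ratio. A gene that this rule names is not reported here. The members and lists were chosen with earlier results of these data known. Alternatives were a stricter q-value, merged intervals, assignment by position, promoter regions only, reciprocal overlap, the sum of fold times length, centred ratios and a ratio of 2. Python 3.11.15, pandas 2.3.3, NumPy 2.4.6 and Matplotlib 3.10.9 were used.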

Additional observations from a re-analysis of the deposited data

How the results depend on the processing

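With 1 library per group, changes of up to 1.5 times were taken as no change, and 81 of 98 alternative values stayed within that. Some of these could not leave that range. Centring divides every ratio of an antibody by the same median, 0.742 or 0.936. Promoter regions only gave the same RPB1 ratios, because the strongest RPB1 regions were all classed as promoter. Merging intervals changed no count, so 81 of 98 does not measure robustness. Of all 62 alternative ratios, 10 lay on the other side of 1 from the reported value. None of the 10 was an RPB1 ratio of TF, TFR2 or ACO1, the 3 called past 1.5-fold, but most alternatives could not move these across 1. Their ratios were already below 0.742, so centring kept them below 1. Promoter regions only and assignment by position gave the same values, which leaves the sum of fold times length, so this is no measure of robustness. Among the 10 were those of HAMP for RPB1 and of FTH1 and IREB2 for phospho-Ser2 given below. With a −log10 q of at least 5, the phospho-Ser2 regions assigned to the 8 genes numbered 45 in place of 104 in WT and 22 in place of 72 in SHP-1 KO cells. WT regions overlapped by a KO region then numbered 16 for RPB1 (of 33) and 14 for phospho-Ser2 (of 45), in place of 26 and 37, beside 69.6% and 54.0% of all such regions. With a reciprocal overlap of 50% they numbered 15 and 18, beside 40.1% and 26.0% of all. Summing fold times length gave RPB1 ratios of 0.156 for TF, 0.221 for TFR2 and 0.429 for HAMP, beside 0.642 as the median of all genes, and phospho-Ser2 ratios of 0.506 for TFR2, 0.379 for ACO1 and 0.635 for IREB2, beside 0.753. This sum gives the summit fold to the whole length of a region, so it falls where 1 long region is split into several with lower summits. The longest WT RPB1 region of TF was such a case, with 10 KO regions touching it. Under the sum 4 RPB1 genes were past 1.5-fold lower in place of 3, beside 53.3% of all genes. For phospho-Ser2, 3 genes were past it in place of 0, beside 41.4% of all genes. With promoter regions only, the phospho-Ser2 ratio was 2.34 for TFRC, and TFR2 and ACO1 gave none. It was 2.43 for FTH1, which does not compare promoters, because the SHP-1 KO region classed as promoter (32.8) peaks 659 bp beyond the gene end and the WT region there (34.2) is classed as 3′ UTR and drops out, leaving 13.5. By position, the IREB2 phospho-Ser2 ratio was 0.977. Centring left 1 RPB1 gene past 1.5-fold lower in place of 3 and put 1 past it higher in place of 0. The cause of the other differences was not tested. No paired analysis was possible because each group has 1 library. Depth is unknown, so weak regions missing from a list were not shown to be absent.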
